A study of Homo sapiens with 6 samples.

Results

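Insulin and insulin-like growth factors act through a pair of receptor kinases, and 9 genes of that route were followed in an ovarian cancer cell line after knockdown of NUF2. The genes were the receptors INSR and IGF1R, the adaptors IRS1 and IRS2, the transcription factors FOXO1, FOXO3 and FOXO4, the thioredoxin-binding protein gene TXNIP and the PI3K inhibitor gene PIK3IP1. They were chosen by name, with earlier results of these data known. Each matched 1 row of the 19973 genes listed by the authors, and all 9 had enough reads to be tested. Cells labelled OVCAR3, an established human ovarian cancer line, were transfected with a control hairpin (shNC, labelled WT) or with a hairpin against the kinetochore gene NUF2 (shNUF2, labelled NUF2 knockdown), and both groups were selected with puromycin to obtain stable lines. RNA was sequenced from 3 libraries per group. A single hairpin was used against NUF2, so that effects of the hairpin and of NUF2 loss cannot be told apart, and the sources do not say whether the libraries of a group came from separate cultures, so that the p-values measure only the spread between these libraries.

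When a ligand binds, the insulin receptor or the IGF1 receptor phosphorylates the IRS adaptors, which recruit PI3K, and the lipid made by PI3K leads to activation of AKT. Active AKT phosphorylates the FOXO factors, which then bind 14-3-3 proteins and leave the nucleus, and FOXO factors that stay in the nucleus can switch on genes such as IRS2 and INSR themselves. PIK3IP1 is a membrane protein that binds and restrains the catalytic subunit of PI3K. TXNIP binds thioredoxin, limits glucose uptake and is best known as a gene induced by glucose through the MondoA and ChREBP factors.

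The libraries held between 13057534 and 16995452 counted reads. NUF2 itself had between 903 and 1096 reads with shNC and between 281 and 384 with shNUF2, and its log2 fold change was -1.51 with a standard error (SE) of 0.08. Of 8 marker genes of ovarian carcinoma, KRT7, KRT8 and KRT18 were abundant. MUC16, PAX8 and EPCAM were present on 371 to 873, 143 to 252 and 44 to 91 reads per library. In FPKM, the deposited level per gene length and library size, they were similarly low at 0.57 to 1.17, 1.29 to 2.25 and 1.15 to 2.71. CDH1 at 9 to 33 and WT1 at 0 to 7 reads were near 0 (at most 0.34 and 0.06 FPKM), although OVCAR3 is known as a line that expresses both. The labelled identity of the cells is therefore taken from the labels and was not settled by these markers. Of 8 markers of immune, endothelial and fibroblast cells, COL1A1 held most of the signal, and their summed level was 85.6 to 93.3 CPM with shNC and 71.4 to 78.6 CPM with shNUF2, where CPM are read counts scaled to library size by TMM. Of the 4 of them with enough reads, the fibroblast markers DCN and COL1A1 were called in opposite directions, DCN higher with shNUF2 (log2 fold change 1.22, SE 0.20) and COL1A1 lower (-0.39, SE 0.06), and the part of these cell markers in the results was not tested. The libraries are bulk RNA, in which a smaller share of cells and less RNA per cell cannot be told apart.

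The promoters of the genes are shown first, because FOXO factors are known to bind the sequence GTAAACA. RefSeq start sites on GRCh38.p14 were matched to all 9 genes by symbol, with windows from 250 bases before the start to 50 bases after it, and for genes with several starts the window nearest to the gene start in the deposited table was used. On either strand, the sequence GTAAACA was found in the windows of 2 of the 9 genes, TXNIP and FOXO4, and in 3.42% of all 35116 windows. PIK3IP1 holds it in the window of its other listed start. The GC box GGGCGG, known to bind SP1, was found in 6 of the 9 windows, counting overlapping matches, and in 45.0% of all windows. The E-box CACGTG was found only in the IRS1 window (1 of 9 genes, and 7.26% of all windows). The capitals below mark GTAAACA and GGGCGG on either strand in the 2 FOXO-element carriers, in PIK3IP1, and in IRS2 and INSR, which changed in opposite directions.
TXNIP, chr1:145996530-145996829, minus strand: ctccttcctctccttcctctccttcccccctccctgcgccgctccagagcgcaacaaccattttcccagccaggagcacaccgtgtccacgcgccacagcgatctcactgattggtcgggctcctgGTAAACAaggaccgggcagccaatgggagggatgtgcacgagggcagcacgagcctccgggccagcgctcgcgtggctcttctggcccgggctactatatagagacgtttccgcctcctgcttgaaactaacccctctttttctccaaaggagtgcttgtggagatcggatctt
FOXO4, chrX:71095601-71095900, plus strand: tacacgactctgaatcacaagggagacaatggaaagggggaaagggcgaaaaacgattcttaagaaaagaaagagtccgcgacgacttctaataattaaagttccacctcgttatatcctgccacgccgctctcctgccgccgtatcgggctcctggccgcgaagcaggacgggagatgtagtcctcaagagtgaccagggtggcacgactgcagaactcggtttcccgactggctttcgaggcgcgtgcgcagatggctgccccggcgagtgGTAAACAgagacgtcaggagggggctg
PIK3IP1, chr22:31292439-31292738, minus strand, the other start: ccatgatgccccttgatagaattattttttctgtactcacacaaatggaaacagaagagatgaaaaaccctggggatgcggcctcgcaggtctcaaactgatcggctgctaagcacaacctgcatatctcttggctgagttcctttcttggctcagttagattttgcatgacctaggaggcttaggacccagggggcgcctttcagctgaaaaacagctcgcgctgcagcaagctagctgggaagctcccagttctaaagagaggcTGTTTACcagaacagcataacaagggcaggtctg
IRS2, chr13:109786534-109786833, minus strand: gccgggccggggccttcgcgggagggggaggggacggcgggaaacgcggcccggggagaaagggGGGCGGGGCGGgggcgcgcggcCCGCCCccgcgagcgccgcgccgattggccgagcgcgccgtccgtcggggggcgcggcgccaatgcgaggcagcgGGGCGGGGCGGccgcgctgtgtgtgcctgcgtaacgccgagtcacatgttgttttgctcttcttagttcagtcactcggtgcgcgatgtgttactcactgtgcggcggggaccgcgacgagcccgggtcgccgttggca
INSR, chr19:7294365-7294664, minus strand: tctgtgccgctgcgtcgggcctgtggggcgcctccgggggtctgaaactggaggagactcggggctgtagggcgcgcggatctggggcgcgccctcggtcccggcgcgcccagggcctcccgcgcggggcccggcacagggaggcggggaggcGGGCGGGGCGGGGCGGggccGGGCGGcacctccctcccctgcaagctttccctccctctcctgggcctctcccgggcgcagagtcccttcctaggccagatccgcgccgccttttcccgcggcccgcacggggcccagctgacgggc
In TXNIP the element begins 124 bases before the start, and in FOXO4 it begins at base 24 after it. These motifs are matches of letters and not measured binding sites.

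Of the 9 genes, 7 were higher, 1 was lower and 1 was not called with shNUF2 at an adjusted p under 0.05 (edgeR's quasi-likelihood test, Benjamini-Hochberg adjustment over all 12874 genes tested). In the same test 33.9% of all genes were higher and 33.8% were lower, so that being called is common in this comparison. IRS2 and PIK3IP1 (2 of the 9 genes) also passed the thresholds of the study's methods read on the log2 scale, a log2 fold change above 1 with an unadjusted p under 0.05. Of all genes tested, 9.41% passed them upward and 4.16% passed the matching threshold downward. For 8 of the 9 genes the values of shNC and shNUF2 libraries did not overlap, against 70.6% of all genes. The median log2 fold change was 0.32 over the 9 genes and -0.01 over all genes tested. The 9 genes were chosen with earlier results of these data known, so that these contrasts with all genes do not come from a blind choice.

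**Figure D1:**
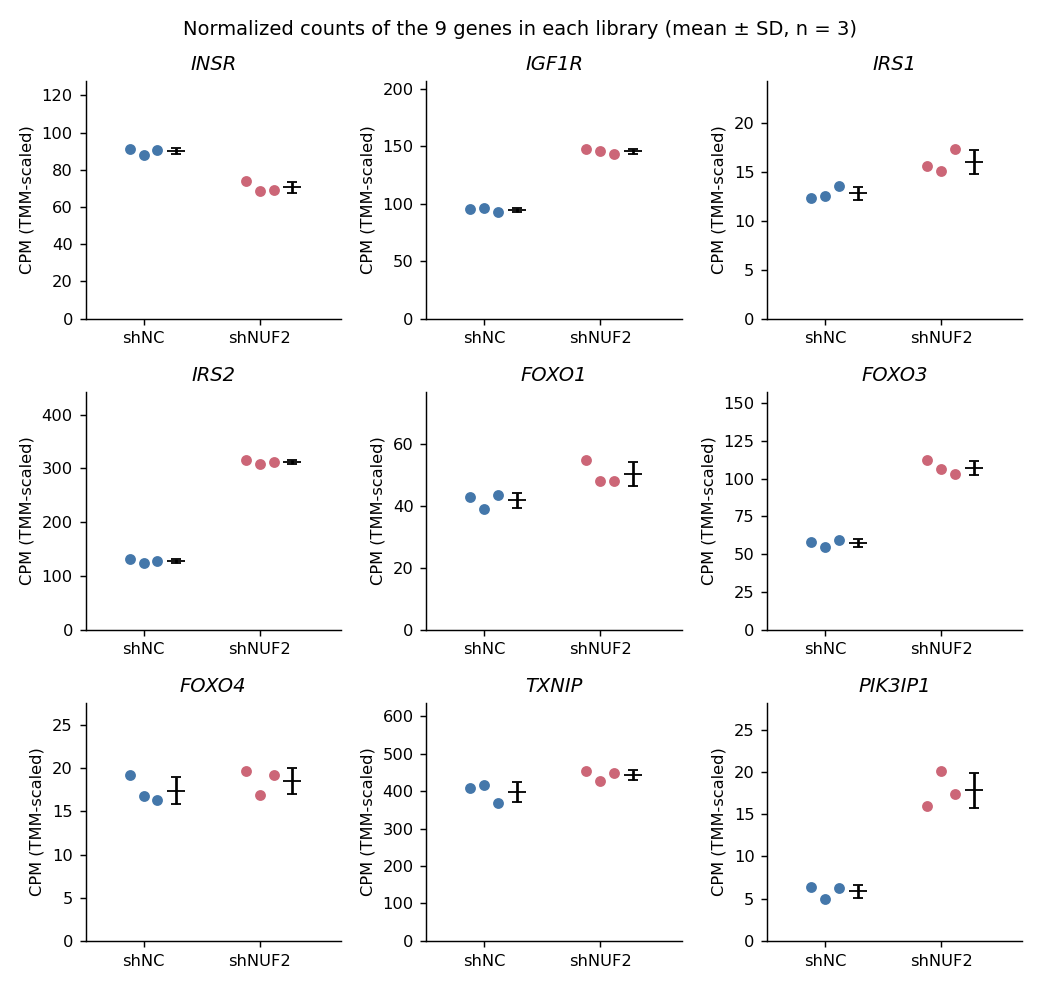
TMM-scaled CPM of each gene in each library, with 1 point per library, 3 libraries per group, and the mean ± SD in black beside them. The shNUF2 points lie above the shNC points for IRS2, PIK3IP1, FOXO3, IGF1R, IRS1, FOXO1 and TXNIP and below them for INSR, whereas those of FOXO4 overlap.

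The receptors changed in opposite directions. INSR (ENSG00000171105, chromosome 19 of GRCh38.p13 from 7112255 to 7294414), the insulin receptor, had 91.2, 88.2 and 90.5 CPM in shNC replicates 1, 2 and 3 and 73.7, 68.7 and 69.1 CPM in shNUF2 replicates 1, 2 and 3. The highest shNUF2 value was thus well under the lowest shNC value. The means were 90.0 ± 1.60 and 70.5 ± 2.81 CPM (SD, n = 3 each), so that shNUF2 held 0.784 of the shNC level. On the log2 scale INSR fell, with an estimate of -0.35 (SE 0.05, 95% interval -0.46 to -0.24), with an adjusted p of 1.94e-06 in the edgeR test. This change lies at the percentile 25.6 of the log2 fold changes of all genes tested, next to their 25th percentile of -0.36.

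IGF1R (ENSG00000140443, chromosome 15 from 98648539 to 98964530), the receptor for IGF1, had 95.2, 96.2 and 92.5 CPM with shNC and 147.6, 145.8 and 143.4 CPM with shNUF2. The groups were far apart, with coefficients of variation of 1.98% and 1.45% between replicates, below the 2.59% and 2.23% that read counting alone would give. Its mean was 1.54-fold higher, and the estimate on the log2 scale was 0.62 (SE 0.05, 95% interval 0.53 to 0.72, edgeR adjusted p = 5.76e-12). The counts of INSR and IGF1R were nearly equal with shNC, and IGF1R had more with shNUF2, as the log2 ratio of INSR to IGF1R counts within a library was -0.06, -0.13 and -0.03 with shNC and -1.0, -1.09 and -1.05 with shNUF2. This ratio does not depend on how libraries are scaled. In FPKM, INSR made up 55.0% ± 0.820 of the summed level of both receptors with shNC and 38.4% ± 0.702 with shNUF2 (SD, n = 3 each), while that sum was 15.3 ± 0.0934 and 16.7 ± 0.268 FPKM. The log2 ratio of counts differed by -0.97 between the groups (p = 0.10 in an exact permutation test, two-sided, the smallest that 3 against 3 libraries allow, and 0.10 after Benjamini-Hochberg adjustment over 4 such ratios).

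Both adaptors were higher with shNUF2, and IRS2 had the larger change. IRS2 (ENSG00000185950, chromosome 13 from 109752695 to 109786583) had 131.3, 124.8 and 127.0 CPM with shNC and 315.7, 308.2 and 312.3 CPM with shNUF2. The mean rose from 127.7 ± 3.29 to 312.0 ± 3.77 CPM (SD, n = 3 each), 2.44-fold, and its log2 fold change was 1.29 (SE 0.04, 95% interval 1.20 to 1.38, edgeR adjusted p = 3.67e-19), at the percentile 93.8 of all genes. The read counts behind it were 1866 to 2185 per library with shNC and 4005 to 4697 with shNUF2, so that counting error was small.

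IRS1 (ENSG00000169047, chromosome 2 from 226731317 to 226799759), the other main adaptor, had 12.3, 12.5 and 13.6 CPM with shNC and 15.6, 15.1 and 17.4 CPM with shNUF2. The groups did not overlap, but they came close to each other. Its log2 fold change was 0.32 (SE 0.11, 95% interval 0.09 to 0.56, edgeR adjusted p = 0.0151), and without shNUF2 replicate 3 it was 0.26 and not called (edgeR adjusted p = 0.0850). With limma it was 0.17 on log2(FPKM + 1) and called (adjusted p = 0.0489), and 0.26 on log2(FPKM + 0.1) and not called (adjusted p = 0.0672). IRS1 rests on 175 to 261 reads per library.

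The ratio of IRS2 to IRS1 counts was higher in every shNUF2 library than in any shNC library. On the log2 scale it was 3.41, 3.32 and 3.22 with shNC and 4.34, 4.35 and 4.17 with shNUF2, a difference of 0.97 (p = 0.10, exact permutation test, the lowest value 3 against 3 can give). In FPKM, the deposited value per gene length and library size, IRS2 made up 92.4% ± 0.465 of the summed level of both adaptors with shNC and 96.0% ± 0.280 with shNUF2 (SD, n = 3 each). The summed FPKM of the adaptors was 17.1 ± 0.303 with shNC and 39.3 ± 0.214 with shNUF2.

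**Figure D2:**
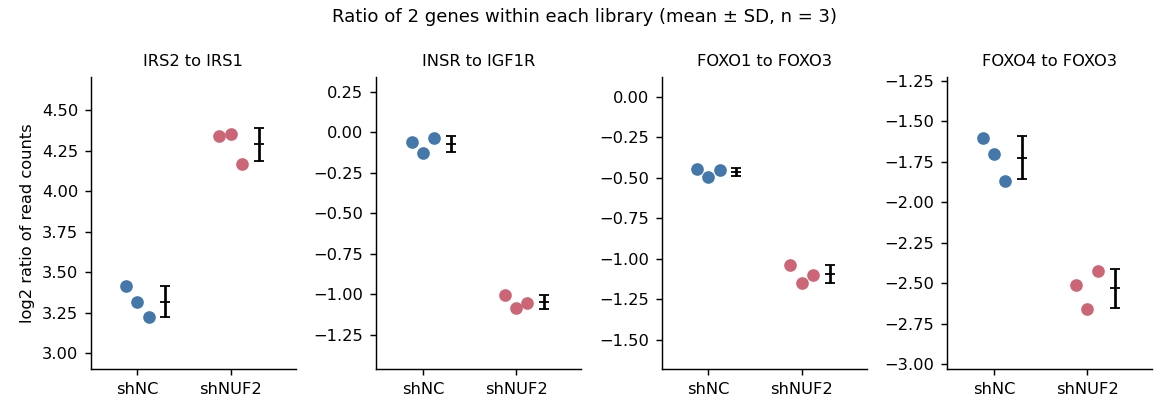
Log2 ratio of the read counts of gene pairs within each library, with 1 point per library, 3 libraries per group, and the mean ± SD in black. In each of the 4 pairs the 3 shNUF2 ratios lie apart from the 3 shNC ratios, with differences of 0.97 for IRS2 to IRS1, -0.97 for INSR to IGF1R, -0.63 for FOXO1 to FOXO3 and -0.81 for FOXO4 to FOXO3.

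The FOXO transcription factors changed unequally, and FOXO3 had the largest log2 fold change of them. FOXO3 (ENSG00000118689, chromosome 6 from 108559835 to 108684774) had 58.4, 54.7 and 59.4 CPM with shNC and 112.3, 106.5 and 103.0 CPM with shNUF2. The mean rose 1.87-fold, from 57.5 ± 2.48 to 107.3 ± 4.71 CPM (SD, n = 3 each), and the estimate on the log2 scale was 0.90 (SE 0.06, 95% interval 0.79 to 1.01, edgeR adjusted p = 1.03e-13). FOXO3 shares 29.2% of the 50-base stretches of its longest GENCODE 29 transcript with transcripts of 8 other genes, mainly FOXO3B, so that its counts depend on how reads with several matches were treated, which the sources do not say.

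FOXO1 (ENSG00000150907, chromosome 13 from 40555667 to 40666641) had 42.8, 38.9 and 43.4 CPM with shNC and 54.7, 48.1 and 48.1 CPM with shNUF2. The lowest shNUF2 libraries were close to the highest shNC library. The log2 fold change was 0.27 (SE 0.07, edgeR adjusted p = 0.00181). A long noncoding RNA on the same strand, LINC00598, shares 4.32% of the exonic bases of FOXO1.

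FOXO4 (ENSG00000184481, chromosome X from 71095851 to 71103532) had 19.2, 16.8 and 16.3 CPM with shNC and 19.7, 16.9 and 19.2 CPM with shNUF2, and the groups overlapped. The log2 fold change of FOXO4 was 0.10, with a 95% interval from -0.12 to 0.32 and an edgeR adjusted p of 0.427, on 219 to 289 reads per library. The interval includes both a fall and a rise, so that no direction can be given. The log2 fold change ranged from 0.04 to 0.17 when single libraries were left out, and FOXO4 was not called in any of these 6 fits.

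Within the libraries, the log2 ratio of FOXO1 to FOXO3 counts was -0.45, -0.49 and -0.45 with shNC and -1.04, -1.15 and -1.10 with shNUF2. That of FOXO4 to FOXO3 was -1.60, -1.71 and -1.87 with shNC and -2.51, -2.66 and -2.42 with shNUF2. Neither ratio overlapped between the groups (p = 0.10 for each, exact permutation test, again the lowest possible). In FPKM, FOXO3 made up 39.3% ± 0.893 of the summed level of the 3 factors with shNC and 51.2% ± 1.20 with shNUF2, while FOXO1 made up 36.7% ± 0.911 and 30.9% ± 0.680 and FOXO4 24.1% ± 1.68 and 17.9% ± 1.12 (SD, n = 3 each). FOXO6, the remaining factor of the family, was low at 3.41 ± 0.464 CPM with shNC and 3.49 ± 0.579 with shNUF2 and was not called (log2 fold change 0.03, standard error 0.24).

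PIK3IP1 showed the highest fold change of the 9 genes. PIK3IP1 (ENSG00000100100, chromosome 22 from 31281594 to 31292534) had 6.40, 5.01 and 6.22 CPM with shNC and 16.0, 20.1 and 17.4 CPM with shNUF2. The lowest shNUF2 library was well above the highest shNC library. Its mean rose 3.03-fold, from 5.88 ± 0.759 to 17.8 ± 2.09 CPM (SD, n = 3 each), and on the log2 scale it rose by 1.60 (SE 0.14, 95% interval 1.31 to 1.89, edgeR adjusted p = 1.18e-10), at the percentile 95.6 of all genes. It is also one of the least abundant of the genes, with 80 to 107 reads per library with shNC and 215 to 262 with shNUF2, and its replicates varied by 12.9% and 11.8%. An antisense gene, PIK3IP1-AS1, overlaps 0.946% of its exonic bases. The 3 genes whose log2 CPM profile over the 6 libraries, centred on the shNC mean, lay nearest to that of PIK3IP1 among 9992 genes with a mean of at least 3 log2 CPM were ANTXR2, ETS2 and NES, with log2 fold changes of 1.54, 1.51 and 1.44 and Euclidean distances of 0.235, 0.259 and 0.261. Fold changes near that of PIK3IP1 follow from choosing the genes in this way, and shared regulation was not tested.

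TXNIP changed little. TXNIP (ENSG00000265972, chromosome 1 from 145992435 to 145996579) had 408.4, 415.8 and 367.3 CPM with shNC and 453.3, 427.5 and 448.1 CPM with shNUF2. Its lowest shNC library, replicate 3, lay apart from the other shNC libraries. The log2 fold change was 0.16 (SE 0.05, 95% interval 0.06 to 0.25, edgeR adjusted p = 0.00399), and without shNC replicate 3 it was 0.10 and not called (edgeR adjusted p = 0.0696). It was not called with limma on log2(FPKM + 1) or log2(FPKM + 0.1) either (adjusted p = 0.0559 and 0.0555). Its shNC replicates varied by 6.58%, against 1.26% from read counting alone.

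**Figure D3:**
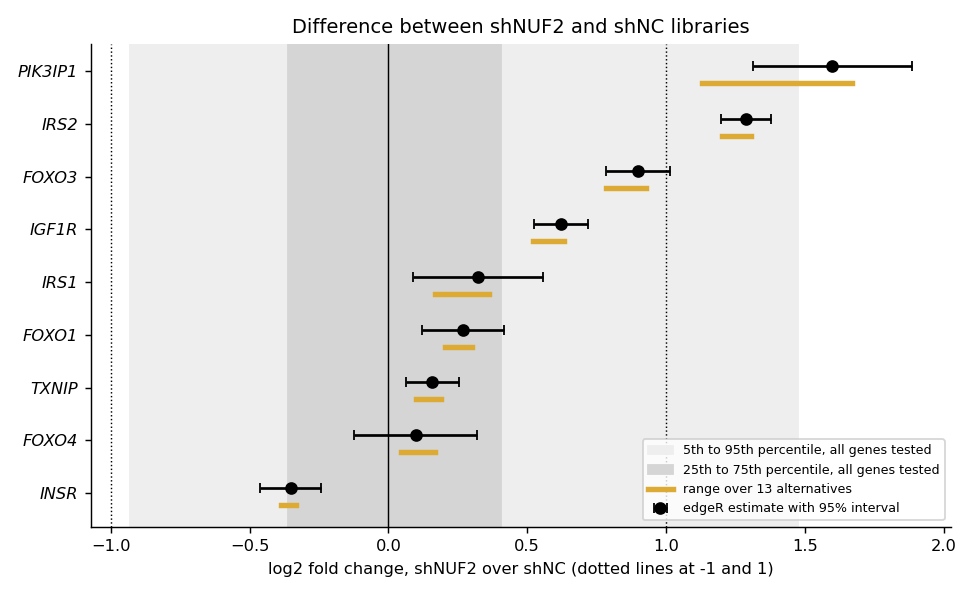
Log2 fold change of shNUF2 over shNC for each gene, with the edgeR estimate and its 95% interval as a black point and bar, and the range over 13 alternative analyses as a yellow bar. The grey bands give the spread of all 12874 genes tested. PIK3IP1 at 1.60 and IRS2 at 1.29 lie beyond the dotted line at 1, FOXO3 is at 0.90, and INSR at -0.35 is the only 1 of the 9 genes with an interval below 0.

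The levels of the genes can be compared with each other in FPKM only. With shNC, TXNIP was highest at 111.6 ± 7.46 FPKM, followed by IRS2 at 15.8 ± 0.328 and INSR at 8.41 ± 0.109 (SD, n = 3 each). FOXO3 at 7.59, FOXO1 at 7.09 and IGF1R at 6.87 FPKM came next, and neighbours in this order overlapped between libraries. FOXO4 followed at 4.65 FPKM, and PIK3IP1 at 1.56 and IRS1 at 1.30 FPKM overlapped each other at the low end. With shNUF2, TXNIP at 121.3 and IRS2 at 37.7 FPKM were again the highest, but FOXO3 at 13.8, IGF1R at 10.3 and FOXO1 at 8.32 FPKM then stood above INSR at 6.42 FPKM, each separate from its neighbour. PIK3IP1 at 4.62 FPKM overlapped FOXO4 at 4.83 FPKM, and IRS1 at 1.59 FPKM was lowest. INSR thus moved from rank 3 to rank 6 of the 9 genes in these libraries.

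**Figure D4:**
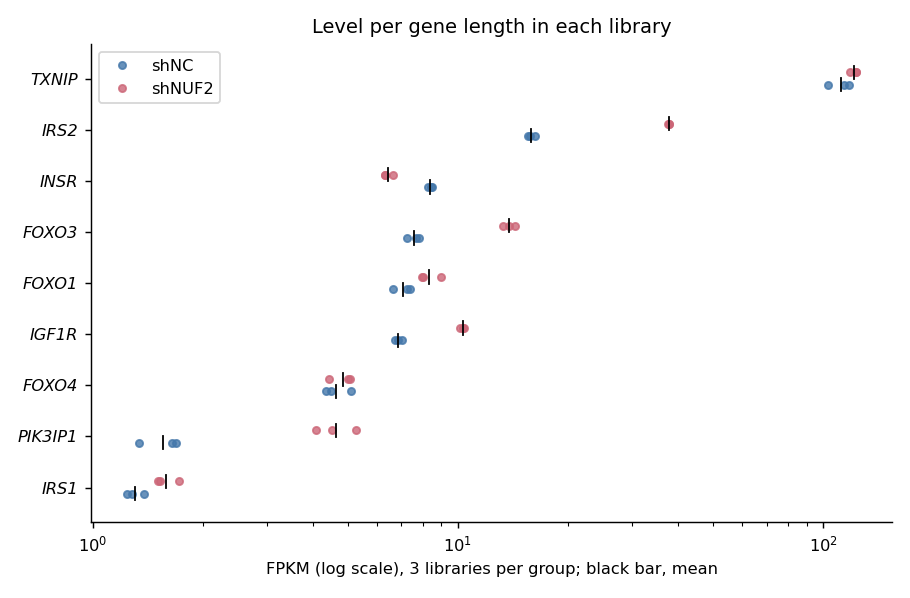
Deposited FPKM (log axis) of each gene in each library, with 1 point per library in each group and a black bar at the mean of 3. TXNIP is highest in both groups, IRS2 moves from 15.8 to 37.7 FPKM, and INSR moves below FOXO3, IGF1R and FOXO1 with shNUF2.

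The other genes of the route were described from 5 lists with 120 genes in all, of which 109 were tested. Of these 109 genes, 59 were higher and 29 were lower (54.1% and 26.6%, against 33.9% and 33.8% of all genes tested). The study's thresholds were passed upward by 21 and downward by 4, and by 9.41% and 4.16% of all genes tested. Their median log2 fold change was 0.22. SOCS1, TRIB2 and PIK3R1 reached the minimum count in all 3 libraries of shNUF2 only, so that they entered the test through the group in which they were higher. Without these 3 genes 56 were higher, and the 21 past the study's thresholds include all 3 of them. INSR, IGF1R and the other members of the 9 genes reached it in all libraries of both groups.

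Among receptors, adaptors and their inhibitors, 10 of 20 tested genes were higher and 5 were lower, with a median log2 fold change of 0.05. These are 50% and 25%, against 33.9% and 33.8% of all genes tested. CAV1, the caveola protein that binds the insulin receptor, rose by 1.67 (SE 0.06), from 37.3 ± 0.660 to 118.6 ± 3.35 CPM (SD, n = 3 each). SOCS2, a feedback inhibitor of cytokine and growth hormone signaling, rose by 1.05 (SE 0.09), and INSRR, a relative of the insulin receptor that senses alkaline pH, rose by 1.20 (SE 0.32) on 12 to 44 reads per library, but its value was 0.32 with limma on log2(FPKM + 1), where the added 1 shrinks the change of genes with low FPKM. SOCS1, another feedback inhibitor, was nearly silent with shNC, where it had 1, 0 and 3 reads. It reached 28, 31 and 20 reads with shNUF2, a ratio of 22.5. SOCS1 is among the 10 higher genes but entered the test through shNUF2 only, so that this ratio is no support for the list. The most negative change called in this list was that of DOK4, an adaptor for receptor kinases, at -0.40.

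Of 13 tested PI3K subunits, relatives and lipid phosphatases, 5 were higher and 4 lower, with a median of -0.09. These are 38.5% and 30.8%, near the 33.9% and 33.8% of all genes tested. PIK3R1, the main regulatory subunit, rose by 1.99 on the log2 scale (SE 0.37) but had only 9 to 12 reads per library with shNC and 25 to 42 with shNUF2. It is among the 5 higher genes but reached the minimum count in all libraries of shNUF2 only, the group in which it was higher. INPP4B, a phosphatase that removes a PI3K product, rose by 1.57 (SE 0.30) on 19 to 20 and 37 to 64 reads. With limma on log2(FPKM + 1) the values of PIK3R1 and INPP4B were 0.23 and 0.21, and with limma on log2(FPKM + 0.1) they were 1.06 and 0.91, so that the size of both changes is uncertain. PIK3C2B, a class II PI3K, fell by 1.15 on the log2 scale (SE 0.04), from 269.4 ± 2.11 to 121.3 ± 4.32 CPM (SD, n = 3 each).

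Of 31 regulators of AKT and FOXO proteins, 15 were higher and 9 lower, with a median of 0.12. These are 48.4% and 29%, against 33.9% and 33.8% of all genes tested. TRIB1, a pseudokinase, rose by 1.77 (SE 0.06) and PPP2R5B, a regulatory subunit of the phosphatase PP2A, by 1.68 (SE 0.08). TRIB2, a pseudokinase that restrains FOXO3, was called higher on very few reads (4, 2 and 0 against 13, 12 and 24). It is among the 15 higher genes but entered the test through shNUF2 only, so that its call is no support for the list. MLST8, a subunit of the mTOR complexes, fell by 0.78 (SE 0.08), the most negative change in this list.

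FOXO target genes were the list with the highest share of increases. Of 31 tested, 22 were higher and 6 lower (71.0% and 19.4%), 10 passed the study's thresholds upward and 1 downward, and the median log2 fold change was 0.65. KLF2 and KLF6, Kruppel-like factors, rose by 2.96 (SE 0.18) and 2.79 (SE 0.07). SOD2, the mitochondrial superoxide dismutase, rose by 2.13 (SE 0.06), from 329.5 ± 31.9 to 1438.3 ± 103.4 CPM (SD, n = 3 each). FBXO32, a ubiquitin ligase gene, rose by 1.88, GADD45A by 1.62, CITED2 by 1.45, BNIP3 by 1.35, PLK2 by 1.26, BCL6 by 1.24 and GADD45B by 1.13. With limma on log2(FPKM + 1) the values of KLF2 and FBXO32, which have low FPKM, were 1.95 and 0.67. ERBB3, a receptor gene that FOXO factors are known to raise, fell by 1.68 (SE 0.06). The gluconeogenic gene PCK1 and its coactivator PPARGC1A were also lower, at -0.94 and -0.93. Many of these genes have other known regulators, whose part was not tested, and part of this list had been seen to be higher in an earlier analysis of these libraries.

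Of 14 genes for TXNIP relatives, thioredoxins, their regulators and glucose transporters, 7 were higher and 5 lower, with a median of 0.18. These are 50% and 35.7%, against 33.9% and 33.8% of all genes tested. SLC2A3, a glucose transporter, rose by 1.43 (SE 0.07), from 108.4 ± 18.3 to 291.0 ± 25.3 CPM (SD, n = 3 each). MLXIPL, which encodes ChREBP, fell by 1.66 (SE 0.16), from 12.2 ± 1.32 to 3.85 ± 0.378 CPM, with a value of -0.99 in limma on log2(FPKM + 1), and TXNRD2, the mitochondrial thioredoxin reductase, fell by 1.10 (SE 0.06). The genes named in the lists were chosen for large changes, so that their calls under the alternatives say little about the lists.

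**Figure D5:**
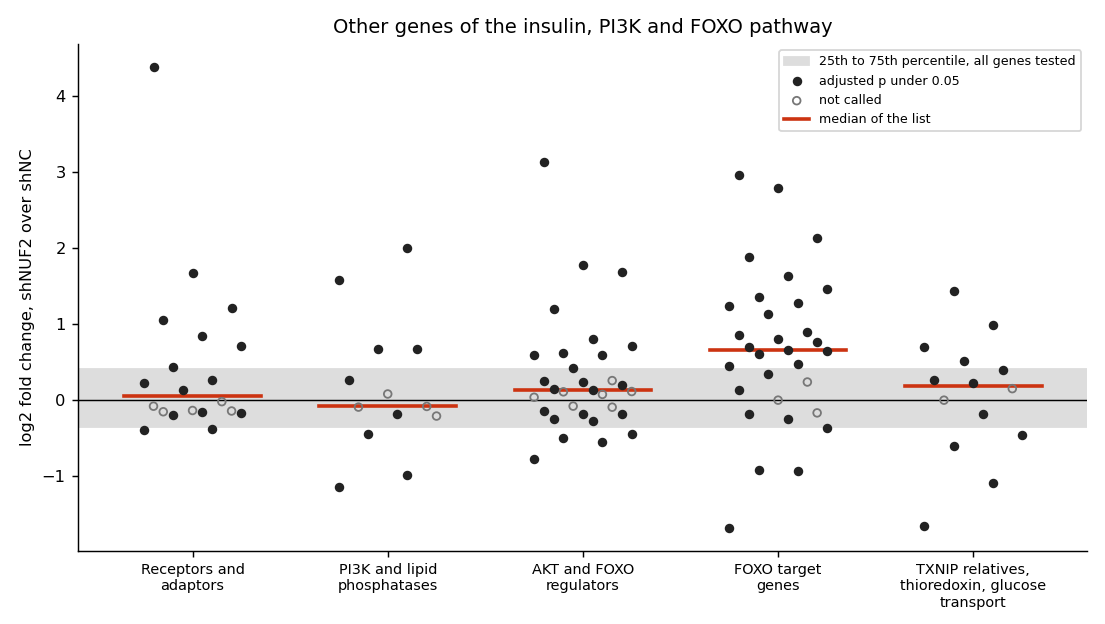
Log2 fold change of shNUF2 over shNC for the 109 tested genes of the 5 lists, with 1 point per gene, filled where the adjusted p was under 0.05 and open where it was not. The red line is the median of a list and the grey band the middle of all genes tested, and FOXO target genes have the highest median at 0.65, while SOCS1 and TRIB2, the highest points of their lists, rest on few reads.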

How the data were processed

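The authors sequenced TruSeq Stranded mRNA libraries on an Illumina NovaSeq, and the submitters' processing notes name cutadapt, HISAT, HTSeq and the build GRCh38.p13, without versions or a strand setting. The authors deposited raw read counts for each gene and FPKM values, which were proportional to the count per gene length and library total within a relative deviation of 2.71e-07. Counts were normalized by TMM and tested here with edgeR 4.0.16 in R 4.3.3 (filterByExpr, quasi-likelihood test, shNUF2 against shNC, all 6 libraries, no covariate), on the whole table. Standard errors were derived from the estimate and its F statistic, and a gene was called at a Benjamini-Hochberg adjusted p under 0.05. The coefficient of variation between libraries of a group beyond counting error was 4.93% by edgeR's common dispersion. It cannot be called biological, as the sources do not say whether the libraries came from separate cultures.

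Ratios were compared by exact permutation tests. Gene overlaps and shared stretches were taken from GENCODE 29, and promoters from RefSeq. The motifs were chosen after the data had been seen, and the genes and lists were chosen with earlier results of these data known. In the lists, genes beyond a log2 fold change of 1 and the most extreme rise and fall were named, except 1 gene that is not reported here, and FOXO6, PCK1, PPARGC1A and those of the closing section were added after their values were seen. Replicates of a group differed by more than counting error in each pair (chi-square per degree of freedom 2.65 to 4.37). Alternatives were DESeq2 1.42.0, DESeq2 size factors, library totals only, no filter, limma 3.58.1 on log2(FPKM + 1) and log2(FPKM + 0.1), the replicate number as a block, and each library left out. G6PC1 was not found under that symbol in the table.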

Additional observations from a re-analysis of the deposited data

How the results depend on the processing

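Of the 9 genes, IRS1 and TXNIP lost their call under some of the 13 alternatives, the other 7 did not cross the threshold, and none of the 9 changed sign. The counts of genes called stayed within 1.5 times. The within-library ratios kept their sign, but their exact p could not pass 0.05 under any setting and says nothing about stability. IRS1 was no longer called with limma on log2(FPKM + 0.1), at 0.26, and without shNUF2 replicate 3, with 0.26 to 0.36 over the fits that left out a library. TXNIP was not called with limma on log2(FPKM + 1) or log2(FPKM + 0.1), at 0.12 in both, nor without shNC replicate 3, with 0.10 to 0.19 over the fits that left out a library. With limma on log2(FPKM + 1) IRS1 was still called but at 0.17, on a scale that understates low genes. Among the list genes recomputed, those that moved by over 1.5 times on that scale included KLF2, MLXIPL, FBXO32, INSRR, SOCS1, INPP4B, PIK3R1 and TRIB2, the last 3 also on log2(FPKM + 0.1), with their direction and call kept. The genes added after their values were seen were not recomputed. The cause of the lost calls was not tested. Of the 9 genes, 7 were thus called higher under most alternatives, 6 with limma on log2(FPKM + 1) and 5 with limma on log2(FPKM + 0.1). With the replicate number as a block the counts were 7 higher and 1 lower, with 1.29 for IRS2 and 1.60 for PIK3IP1, and no call changed. Same-numbered libraries did not deviate together (correlations of 0.09, 0.05 and -0.07), and 2 of 6 libraries correlated best with their own number. Scaling by library totals alone moved the median of all genes from -0.01 to -0.05 and changed no call among the 9 genes. With 3 libraries per group an exact test cannot go below 0.10, and genes with few reads, such as SOCS1 and TRIB2, have uncertain folds.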

Other observations

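The 14-3-3 genes, whose proteins bind phosphorylated FOXO factors, were described after their values were seen. Of 7 tested, 6 were higher with shNUF2 and 1 was lower (edgeR adjusted p of at most 0.00477), where 33.9% of all genes tested were higher and 33.8% lower. SFN, the epithelial member, had the highest log2 fold change at 0.80 (SE 0.05), from 60.5 ± 1.27 to 105.0 ± 2.01 CPM (SD, n = 3 each), followed by YWHAH at 0.71 (SE 0.07). YWHAE was the lower one at -0.19 (SE 0.04).

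Of the 4 other tested alpha-arrestin genes, ARRDC1 to ARRDC4, which belong with TXNIP to 1 family, 3 were higher and 1 lower, against the same shares of all genes, and this family too was added after its values were seen. ARRDC4, like TXNIP a known glucose-responsive gene, was higher by 0.70 on the log2 scale (SE 0.20), on few reads at 4.03 ± 0.955 CPM with shNC (SD, n = 3). ARRDC3 was at 0.51 (SE 0.05) and ARRDC1 at -0.47 (SE 0.09).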
